A study of Mus musculus with 6 samples.

Results

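The interferon regulatory factors (IRFs) are transcription factors that share a DNA-binding domain with conserved tryptophans and bind elements built around GAAA. The genes described are Irf1, Irf2, Irf3, Irf4, Irf5, Irf7, Irf8 and Irf9, chosen by name and each represented by a probe set that the platform annotation pairs with that gene alone. All 8 were measured, among 19752 genes in all. They were compared between regulatory T (Treg) cells of the pancreas and of the spleen, with 3 arrays from each tissue. The cells came from prediabetic female mice aged 10 weeks, of the background labelled NOD NRB_SFB+, a strain that develops autoimmune diabetes without any treatment. Both groups carried the Foxp3-ires-gfp reporter, which couples green fluorescent protein to the Treg transcription factor Foxp3, and both were sorted as DAPI-negative CD45+ TCRb+ CD4+ GFP+ cells. No group was treated, and the labels do not say whether an array holds 1 mouse or a pool, and the spread that the p-values rest on is that of these arrays and may be technical.

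IRF proteins act at several points of the interferon system and of lymphocyte differentiation. IRF3 and IRF7 are phosphorylated when nucleic acid sensors are engaged and switch on type I interferon genes, IRF5 acts downstream of Toll-like receptors, and IRF9 is the IRF subunit of the complex that answers type I interferon. IRF1 is induced by interferon gamma and activates genes that IRF2 can repress at the same elements. IRF4 and IRF8 bind weakly alone and act with partners such as BATF and JUN or the ETS factors PU.1 and Spi-B. IRF4 is induced by the T cell receptor (TCR) and is required for effector Treg cells in mice, while IRF8 is best known from dendritic cells, macrophages and B cells.

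The promoter sequences of Irf8, Irf1 and Irf2 are shown, the 3 of the 8 genes with a match to the gamma-activated site TTCNNNGAA (GAS). This is the response element of interferon gamma, by which Irf8 and Irf1 are known to be induced. The interferon gamma gene differed between the tissues. The windows are from RefSeq on GRCm38.p6 and run from 250 bases before to 50 bases after the annotated start, written 5′ to 3′ on the gene's strand. Capitals mark GAS matches, and in Irf2 also, before it, an IRF element (GAAA, any 2 bases, GAAA) and, after it, a form of the NF-kB site (GGG, any 2 bases, TTTCC).
Irf8, chr8:120736108-120736407, plus strand: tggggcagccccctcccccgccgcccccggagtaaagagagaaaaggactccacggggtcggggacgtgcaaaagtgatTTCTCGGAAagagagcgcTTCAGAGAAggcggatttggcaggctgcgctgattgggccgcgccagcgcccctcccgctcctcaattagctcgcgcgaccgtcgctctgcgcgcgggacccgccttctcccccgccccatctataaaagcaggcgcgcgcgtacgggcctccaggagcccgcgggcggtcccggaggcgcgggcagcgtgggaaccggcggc
Irf1, chr11:53769764-53770063, plus strand: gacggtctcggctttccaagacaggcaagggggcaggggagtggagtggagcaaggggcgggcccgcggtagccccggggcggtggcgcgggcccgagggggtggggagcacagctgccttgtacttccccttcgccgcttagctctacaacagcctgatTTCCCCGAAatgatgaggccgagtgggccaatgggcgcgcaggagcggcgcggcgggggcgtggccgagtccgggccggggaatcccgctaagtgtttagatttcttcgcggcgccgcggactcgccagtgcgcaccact
Irf2, chr8:46739495-46739794, plus strand: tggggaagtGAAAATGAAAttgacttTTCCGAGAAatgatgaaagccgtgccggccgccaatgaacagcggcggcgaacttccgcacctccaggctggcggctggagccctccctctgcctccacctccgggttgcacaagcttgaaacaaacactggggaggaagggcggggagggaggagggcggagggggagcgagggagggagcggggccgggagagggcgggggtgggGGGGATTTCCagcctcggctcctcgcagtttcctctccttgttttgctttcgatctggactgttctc

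The Irf8 window held GAS matches at its bases 80 to 88 and 98 to 106, the Irf1 window held 1 at bases 161 to 169, and the Irf2 window held 1 at bases 27 to 35. The 8 genes have 11 such windows, 3 of which held a GAS, and over all 32851 RefSeq promoter windows of this length the share was 8.30%. The IRF element, searched on both strands like the others, was found in 1 of the 11 windows, that of Irf2, and in 3.44% of all windows. The NF-kB site was likewise found only in the Irf2 window among the 11, and in 1.63% of all windows. TGANTCA, the AP-1 site, was found in 0 of the 11 windows and in 7.81% of all windows. None of the searched motifs overlapped another in the printed windows, and a match is a description of letters, not a binding site.

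Irf8 was higher in pancreatic than in splenic Treg cells, and it was the only one of the 8 genes past the test. Its log2 intensity (probe set 10576034) was 9.05, 9.31 and 9.08 on pancreas arrays 1 to 3, against 7.70, 8.17 and 8.08 on spleen arrays 1 to 3. On the linear scale these are intensities of 531, 633 and 540 in pancreas and of 208, 288 and 270 in spleen. The tissues did not overlap, with the lowest pancreas array well above the highest spleen array. The means were 9.15 ± 0.14 in pancreas and 7.98 ± 0.25 in spleen (SD, n = 3 each), a 2.24-fold difference, with a log2 fold change of 1.16 and a 95% interval of 0.76 to 1.56 (limma, Benjamini-Hochberg adjusted p = 0.0183). Of all 19752 genes, 0.678% passed this test in either direction and 0.547% passed as higher in pancreas. With 3 arrays a tissue, precision is limited by their number.

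**Figure D1:**
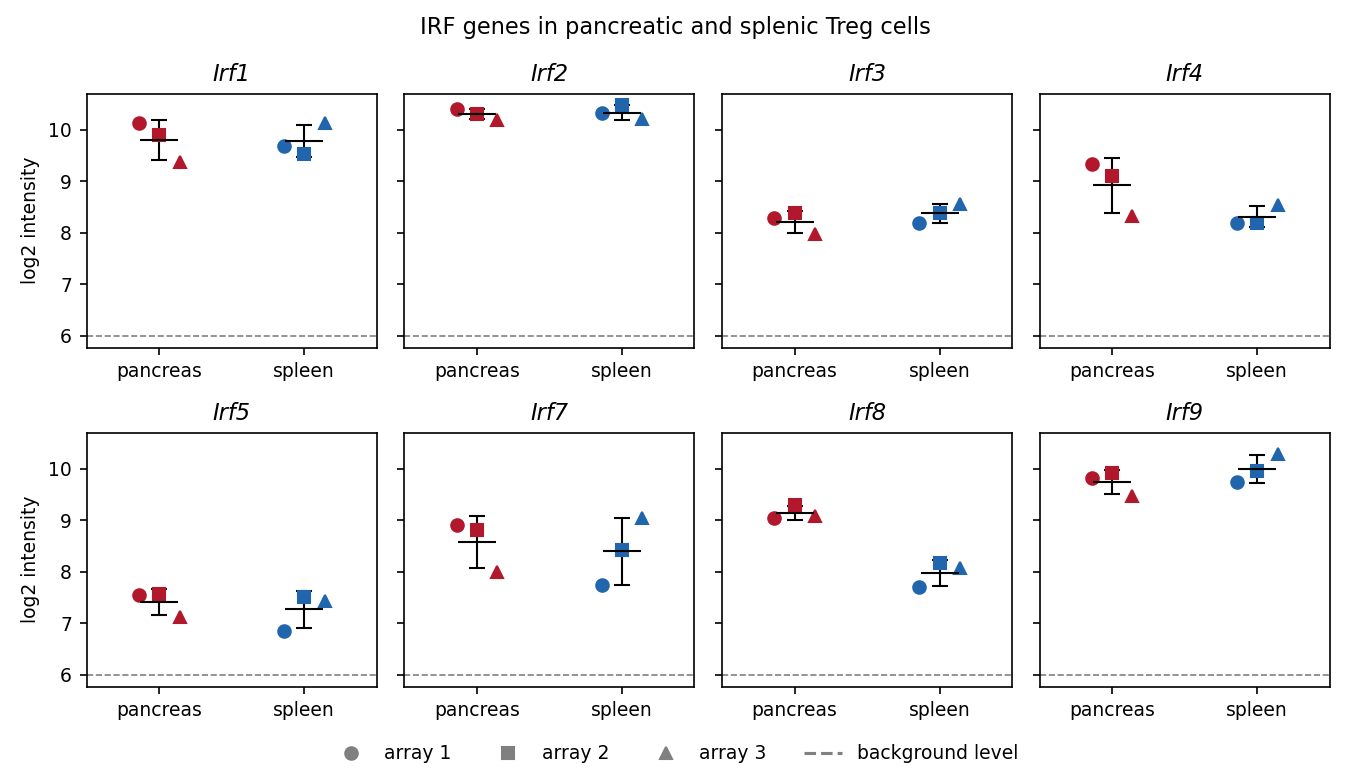
The log2 intensity of each IRF gene on each array, with pancreas (red) left of spleen (blue), array numbers as marker shapes, and the mean and SD of 3 arrays in black. The dashed line is the background level, an intensity of 63.9 before log2. Irf8 is the only gene whose pancreas arrays all lie above its spleen arrays, and every value of the 8 genes is above background.

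The size of the Irf8 difference changed little with the data used. When single arrays were omitted, its log2 fold change ran from 1.02 to 1.26, and 4 of these 6 fits kept the call. It ended without pancreas array 2 (1.08, adjusted p = 0.105) and without spleen array 1 (1.02, adjusted p = 0.0617), which hold the highest and the lowest Irf8 value of all 6 arrays. The call also ended when each array was centred on its median and scaled to 1 common width (1.30, adjusted p = 0.0703).

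Because Irf8 is also a gene of B cells, macrophages and dendritic cells, the markers of those cells were read alongside it. The summed B cell markers were higher in pancreas, at intensities of 923 to 2175 over 9 genes, against 660 to 800 in spleen. Cd79a, a signalling chain of the B cell receptor, was at 7.73, 6.80 and 8.36 on pancreas arrays 1 to 3, against 5.62, 6.27 and 5.43 in spleen, and Ms4a1, which encodes CD20, was at 8.0, 6.32 and 8.26, against 5.59, 5.77 and 4.98. Bank1, a B cell scaffold gene, was at 7.74, 5.94 and 8.08, against 5.73, 5.97 and 5.2. All 9 genes had a higher mean in pancreas, with a median log2 fold change of 1.25. Of the 9, 8 had an unadjusted p under 0.05 (limma), against 6.84% of all genes, and Cd79a passed the test (adjusted p = 0.0482). In pancreas Cd79a, Ms4a1 and Bank1 were lowest on array 2. On that array Irf8 was at its highest, and Cd79a and Ms4a1 were still above all spleen arrays, while Bank1 was not. How Irf8 goes with these genes from array to array was not tested.

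The macrophage and monocyte markers had summed intensities of 953 to 1019 in pancreas and 704 to 772 in spleen over 11 genes. Of these, Csf1r, Cd14, Adgre1, Fcgr1 and C1qc were below background on all 6 arrays, while C1qb and Itgam were above it on all 6 and overlapped between the tissues. Cd68, a lysosomal gene of macrophages, was at 7.62, 7.62 and 7.09 in pancreas, against 6.86, 6.76 and 7.08 in spleen (adjusted p = 0.473), and Mpeg1, which encodes perforin-2, was at 6.70, 6.20 and 6.55, against 5.88, 6.17 and 6.11 (adjusted p = 0.674). Neither overlapped between the tissues, which held for 10.4% of all genes, and neither passed the test. Lyz2, the lysozyme gene of myeloid cells, was 3.74-fold higher in pancreas (adjusted p = 0.00134), at 8.04, 7.79 and 7.94 on its arrays, against 6.27, 5.69 and 6.10. The dendritic cell markers summed to 420 to 596 in pancreas and 334 to 405 in spleen over 8 genes, and Flt3, Itgax, Xcr1, Clec9a and Clec10a were below background on all 6 arrays. Cd209a, a lectin gene of some dendritic cells, was at 7.40, 6.27 and 7.91 in pancreas, against 6.02, 5.70 and 5.64 in spleen (adjusted p = 0.132). The part of other cells in the Irf8 difference was not tested beyond these values, and fewer cells of a type cannot be told apart from less RNA per cell in such samples.

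**Figure D2:**
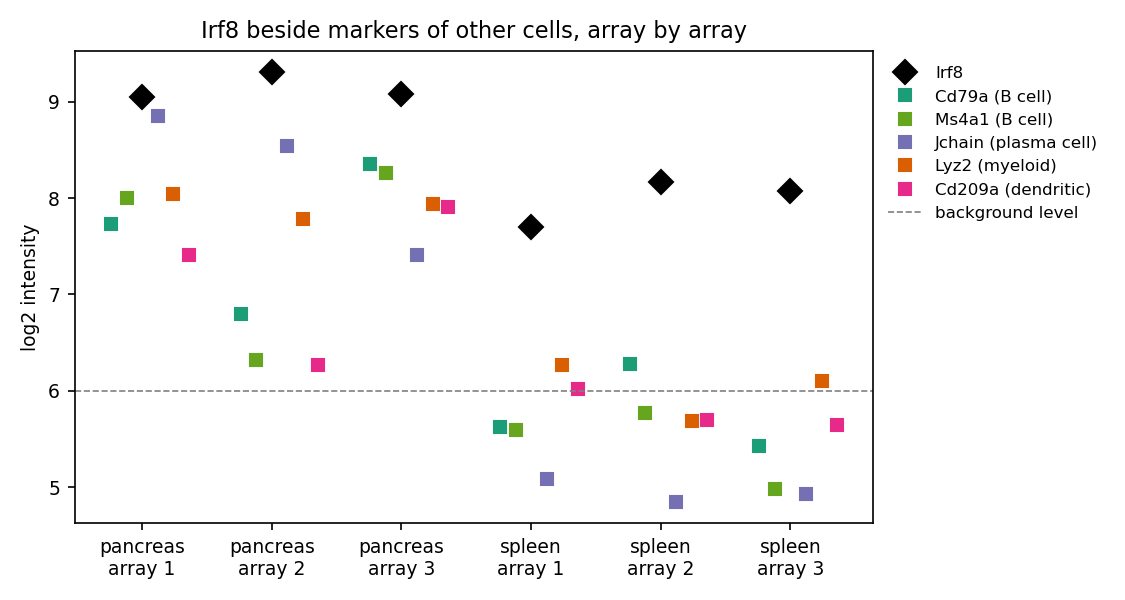
The log2 intensity of Irf8 (black) and of 5 marker genes of other cells on each array, with pancreas arrays left of spleen arrays and the background level dashed. On pancreas array 2 Irf8 reads 9.31. There Ms4a1, at 6.32, and Cd209a, at 6.27, are close to the background level, while Cd79a is at 6.80, Lyz2 at 7.79 and Jchain at 8.54.

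The genes with the array pattern most like that of Irf8 were found by the mean absolute difference over the 6 arrays, after subtracting each gene's own mean. Cxcr3, a chemokine receptor gene, was nearest (0.0659 on the log2 scale), followed by the G protein regulator gene Rgs16 (0.0685), the linker histone gene H1f1 (0.0857), Rin2 (0.0925) and the semaphorin gene Sema7a (0.119). The median over the 11142 genes compared was 0.607. These genes were picked for likeness over 6 arrays, so their closeness is a description only.

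Irf4 had a higher mean in pancreas, but its arrays overlapped and it did not pass the test. Its log2 intensity (probe set 10404389) was 9.34, 9.10 and 8.32 on pancreas arrays 1 to 3, against 8.20, 8.20 and 8.55 on spleen arrays 1 to 3. Pancreas arrays 1 and 2 stood above all spleen arrays, while pancreas array 3 lay within their range. The means were 8.92 ± 0.53 and 8.32 ± 0.20 (SD, n = 3 each), with a log2 fold change of 0.61 and a 95% interval of 0.05 to 1.16 (limma adjusted p = 0.646, unadjusted p = 0.0353).

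Whether Irf4 passed the test changed with 1 array left out, while its direction did not. Without pancreas array 3 its log2 fold change was 0.91 and it passed the test (adjusted p = 0.0277), and in the other 5 fits that omitted 1 array it was between 0.40 and 0.72 and did not pass. Pancreas array 3 had the narrowest log2 distribution of the 6 arrays, with an interquartile range of 2.10, against 2.63 to 2.96 on the other pancreas arrays and 2.38 to 2.90 on the spleen arrays. With that range as a covariate, a fit chosen after seeing the data, Irf4 was at 0.71 (adjusted p = 0.0215) and Irf8 at 1.19 (adjusted p = 0.00362). In that fit 544 genes passed instead of 134. Without pancreas array 3, 262 passed.

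Irf4 and Irf8 were also set against each other within each array. This removes a factor common to all intensities of an array, but not a difference in array width. Irf4 minus Irf8 was 0.29, -0.20 and -0.75 in pancreas, against 0.50, 0.03 and 0.47 in spleen. The mean was 0.56 lower in pancreas (exact permutation test, two-sided p = 0.2, where 0.1 is the smallest p that 3 arrays against 3 allow). No outcome of this test could have passed 0.05, so it leaves the question of an unequal difference undecided. The genes with a pattern most like that of Irf4 were Map2k3 (mean absolute difference 0.0631), a kinase gene of the p38 pathway, Ppil1 (0.0771), Pdcd1 (0.0919), which encodes PD-1, Ppa1 (0.0958) and the calmodulin gene Calm3 (0.0974).

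**Figure D3:**
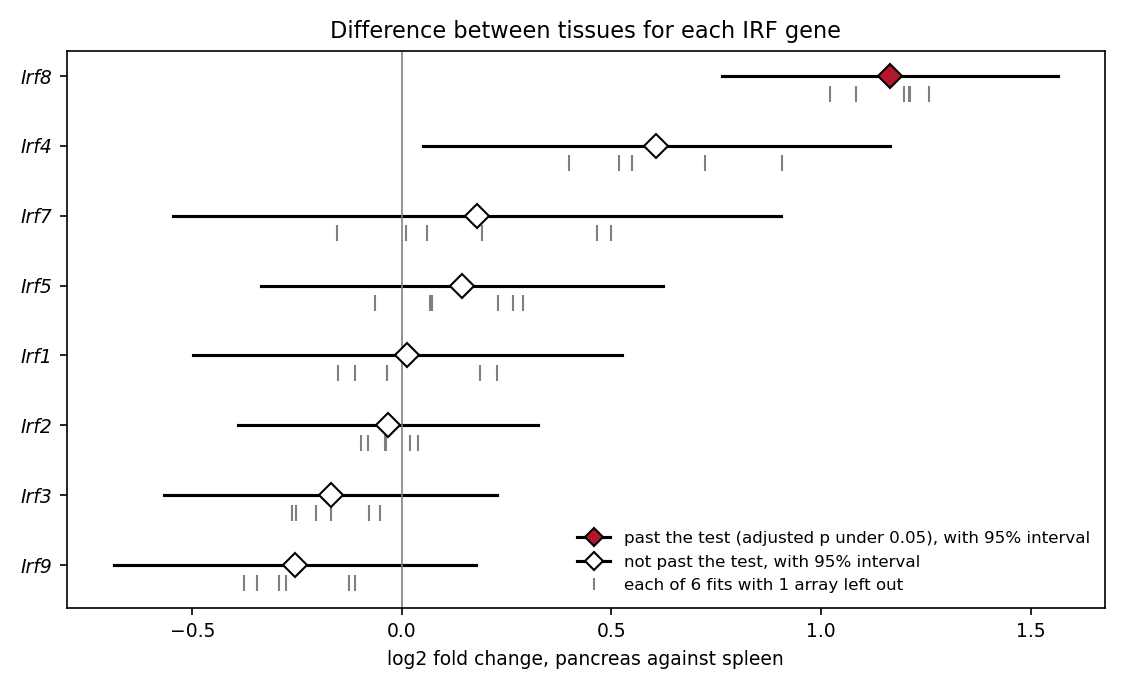
The log2 fold change of each IRF gene, pancreas against spleen (diamonds), with its 95% interval from limma and, as ticks below it, the values when 1 array is omitted. The interval of Irf8 runs from 0.76 to 1.56, that of Irf4 from 0.05 to 1.16, and those of the other 6 genes include 0.

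The remaining 6 genes did not pass the test, and the tissues overlapped for each of them. Of the 8 genes, 5 had a higher and 3 a lower mean in pancreas, with a median log2 fold change of 0.08, against -0.04 over the 11698 genes with a mean above background. Arrays that did not overlap were found for 1 of the 8, Irf8, and for 10.4% of all genes, 4.57% higher and 5.81% lower in pancreas. At an unadjusted p under 0.05, 2 of the 8 genes passed, Irf8 and Irf4, as did 6.84% of all genes.

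The activator and antagonist pair, Irf1 and Irf2, had mean differences near 0. Irf1 was at 10.13, 9.89 and 9.37 on pancreas arrays 1 to 3, against 9.69, 9.53 and 10.13 on spleen arrays 1 to 3. The arrays of the tissues spanned almost the same range, and the log2 fold change was 0.01 with a 95% interval of -0.50 to 0.52 (limma adjusted p = 1.00). A second Irf1 probe set, not used because it was dimmer, was at 7.13 ± 0.20 in pancreas and 7.30 ± 0.11 in spleen (SD, n = 3 each), so the sign of the difference was not the same for both probe sets.

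Irf2 was at 10.40, 10.31 and 10.20 in pancreas, against 10.32, 10.48 and 10.21 in spleen (log2 fold change -0.03, 95% interval -0.39 to 0.32, limma adjusted p = 1.00). It was the steadiest of the 8, with a pooled SD within tissue of 0.12 on the log2 scale, smaller than that of all but 10.5% of genes above background. Irf1 minus Irf2 within each array averaged -0.51 ± 0.29 in pancreas and -0.55 ± 0.44 in spleen (exact permutation test, two-sided p = 0.9).

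Of the factors that switch on type I interferon genes, Irf3 was at 8.28, 8.38 and 7.98 in pancreas, against 8.20, 8.38 and 8.57 in spleen. Its log2 fold change was -0.17 with an interval of -0.57 to 0.23. Irf7 was at 8.92, 8.82 and 8.01 in pancreas, against 7.74, 8.43 and 9.04 in spleen. Irf7 varied more between arrays of 1 tissue than any other of the 8, with a pooled SD of 0.58 that exceeded that of 98.9% of genes above background. Its log2 fold change was 0.18 with an interval of -0.55 to 0.90, and it ran from -0.15 to 0.50 when single arrays were omitted.

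The Irf7 values can also be read against the width of the arrays. In both tissues its level rose in the order of the interquartile range, from 2.10 through 2.63 to 2.96 in pancreas and from 2.38 through 2.69 to 2.90 in spleen. It was 1 of the 8 to do so (12.5%), which is no more than the 14.5% of genes above background that did the same. The part of array width in the Irf7 values was not tested further, and with width as a covariate its log2 fold change was 0.33 (adjusted p = 0.445). Irf7 is itself an interferon-stimulated gene.

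**Figure D4:**
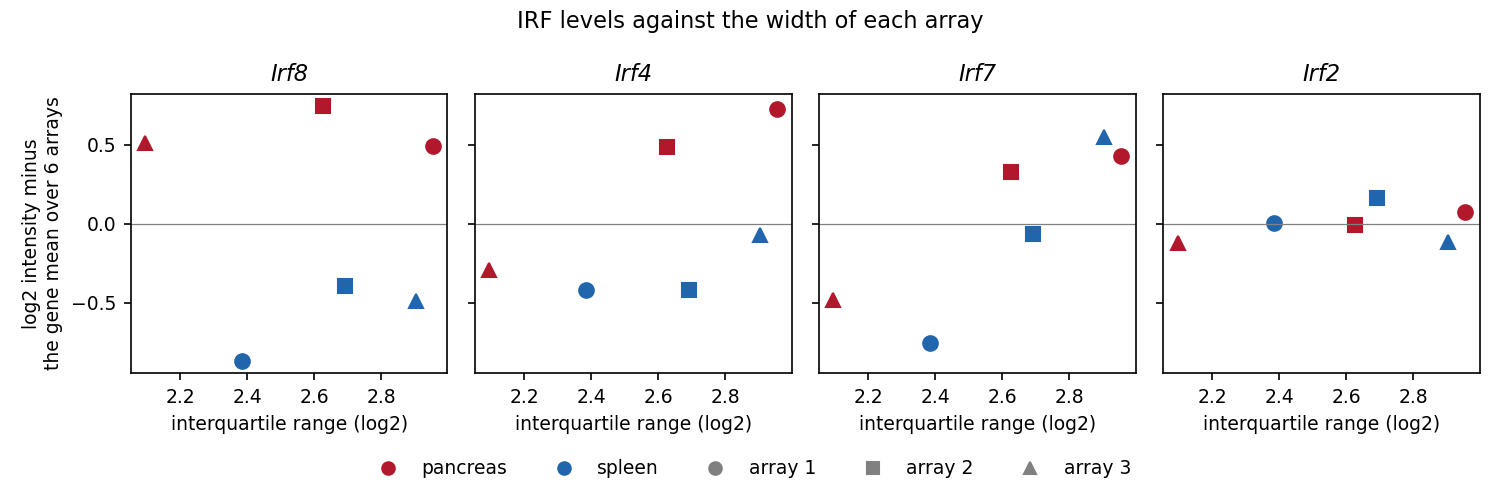
The log2 intensity of Irf8, Irf4, Irf7 and Irf2, each minus its mean over the 6 arrays, against the interquartile range of each array (log2 scale), with pancreas in red, spleen in blue and array numbers as marker shapes. All pancreas values of Irf8 lie above its spleen values, Irf7 rises with width in both tissues, and Irf2 stays near 0.

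Irf5 was at 7.56, 7.56 and 7.12 in pancreas, against 6.86, 7.52 and 7.44 in spleen (log2 fold change 0.14, interval -0.34 to 0.62). Spleen array 1 held the lowest value, and without it the log2 fold change was -0.06. Irf9 was at 9.82, 9.92 and 9.48 in pancreas, against 9.75, 9.95 and 10.28 in spleen (log2 fold change -0.25, interval -0.69 to 0.18). Irf9 had the lowest fold change of the 8 and kept its sign whichever single array was omitted, at -0.38 to -0.11. The intervals of Irf1, Irf2, Irf3, Irf5 and Irf9 exclude a 2-fold difference in either direction, which corresponds to 1 on the log2 scale. So does that of Irf7, by a smaller margin, since it reaches 0.90.

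Genes named after IRF2-binding proteins, Irf2bp1, Irf2bp2 and Irf2bpl, encode cofactors outside the family. None of these 3 passed (limma), and 0 had an unadjusted p under 0.05. Their log2 fold changes were -0.25, 0.29 and 0.05.

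The interferon system around the IRFs differed in single genes. Among 7 measured interferon genes 1 rose, Ifng, which encodes interferon gamma, at 8.19, 7.92 and 7.95 in pancreas, against 6.61, 6.98 and 6.54 in spleen (2.47-fold, adjusted p = 0.00952). That call was kept whichever single array was omitted. Over all genes, 0.547% passed as higher in pancreas. The type I gene Ifnb1 averaged 5.39 in pancreas and 5.09 in spleen, below background. Of 10 measured receptor, JAK and STAT genes, 0 passed the test and 2 had an unadjusted p under 0.05 (limma), against 6.84% of all genes. The 2 were the interferon gamma receptor chains Ifngr1 (log2 fold change 0.41, adjusted p = 0.614) and Ifngr2 (-0.70, adjusted p = 0.348). Neither overlapped between the tissues, which held for 10.4% of all genes.

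Upstream of IRF3, IRF5 and IRF7, 1 of 18 measured sensors, adaptors and kinases passed and was lower in pancreas, as were 0.132% of all genes. It was Tlr7, an endosomal RNA receptor, at 6.98, 6.86 and 6.49 in pancreas, against 8.16, 8.16 and 8.10 in spleen (log2 fold change -1.36, adjusted p = 0.00693). The list's median was -0.12, and 13 of the 18 had a lower mean in pancreas. The same held for 9915 of all 19752 genes and for 6940 of the 11698 genes above background. Of the 18, 16 had a mean above background. Tbk1 and Ikbke, the kinases of IRF3 and IRF7, were at -0.33 and -0.44 with intervals that included 0.

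Downstream, no single gene passed in either list of interferon targets. Of 25 measured type I interferon-stimulated genes, 0 passed in limma and 3 had an unadjusted p under 0.05. The 3 were Herc6 (-0.55), Ifit2 (-0.56) and Ifit1 (-0.51), all lower in pancreas. At that unadjusted p, 719 of all 19752 genes were lower in pancreas and 632 higher. The median of the type I list was -0.08. Of 21 measured targets of interferon gamma and IRF1, 0 passed and 4 had an unadjusted p under 0.05, all higher in pancreas. The chemokine gene Cxcl9 was at 6.46, 6.72 and 7.29 in pancreas with all spleen arrays below background, which makes it at least 1.77-fold higher (adjusted p = 0.0871), and Cxcl10 had a log2 fold change of 0.89 (adjusted p = 0.105). Ciita, the class II transactivator gene, was at 0.52 (adjusted p = 0.402) and the guanylate-binding protein gene Gbp3 at 0.43 (adjusted p = 0.669). The antigen presentation genes of this list, among them Tap1 (0.04), Psmb8 (-0.01) and B2m (-0.06), had intervals that included 0, and the median of the list was 0.04. Ciita, Cxcl9 and Cxcl10 are also genes of B cells, macrophages and dendritic cells, whose marker values are given above.

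Among 13 partners of IRF4 and IRF8, 2 rose, both of the AP-1 family, and the list's median was 0.47. Over all genes, 0.547% passed as higher in pancreas. Fos averaged 8.19 ± 0.34 in pancreas and 6.13 ± 0.16 in spleen (SD, n = 3 each, limma adjusted p = 0.00127). Jun averaged 9.56 ± 0.22 in pancreas and 7.62 ± 0.73 in spleen (SD, n = 3 each, limma adjusted p = 0.0207), and lost its call without pancreas array 1 or pancreas array 2 (adjusted p of up to 0.0865). Fosl2 (1.05, adjusted p = 0.0801), Junb (1.23, adjusted p = 0.193) and Bach2, which encodes a repressor (-1.02, adjusted p = 0.0951), did not pass. The arrays of these genes did not overlap between the tissues, which held for 10.4% of all genes. Batf, the partner of IRF4 in T cells, averaged 8.47 ± 0.41 in pancreas and 8.01 ± 0.28 in spleen (SD, n = 3 each), a log2 fold change of 0.47 (adjusted p = 0.823), and Batf3 was at -0.05. The ETS partner genes Spi1, which encodes PU.1, and Spib are also genes of B cells and, for Spi1, of myeloid cells. Spi1 was at 6.02, 5.71 and 6.35 in pancreas, against 5.03, 5.61 and 5.34 in spleen (adjusted p = 0.305), and Spib was at 6.62, 5.75 and 6.40, against 5.47, 5.39 and 5.08 (adjusted p = 0.141). Neither overlapped or passed the test. Both were below background on all spleen arrays and on pancreas array 2. In pancreas both were lowest on that array, as the 3 B cell genes were.

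The TCR and NF-kB genes through which Irf4 can be induced gave 0 of 9 past the test. Of the 9, 3 had an unadjusted p under 0.05 (limma), against 6.84% of all genes. The paracaspase gene Malt1 was at 0.63 (adjusted p = 0.318), while Prkcq, which encodes protein kinase C theta (-0.50, adjusted p = 0.445), and Rel, which encodes the NF-kB subunit c-Rel (-0.40, adjusted p = 0.602), had lower means in pancreas. Over all genes, 0.547% passed as higher in pancreas. Of 10 measured genes of effector Treg cells, several of which depend on IRF4 in mice, 4 rose and the median was 0.43. They were Il10, at least 8.41-fold higher with all spleen arrays below background (adjusted p = 7.72e-05), the chemokine receptor gene Ccr8 (1.84, adjusted p = 0.00362), the repressor gene Prdm1 (1.21, adjusted p = 0.0215) and the co-inhibitory receptor gene Tigit (0.88, adjusted p = 0.0473). Among the others, Tnfrsf9 was at 0.48 (adjusted p = 0.602), Icos at 0.38 (adjusted p = 0.667) and Ccr6 at -0.41 (adjusted p = 0.886). Of the 10, 6 had an unadjusted p under 0.05 (limma), all higher in pancreas, against 632 of all 19752 genes. Prdm1 and Tigit each kept the call in 1 of 6 fits that omitted an array, the one without pancreas array 3.

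**Figure D5:**
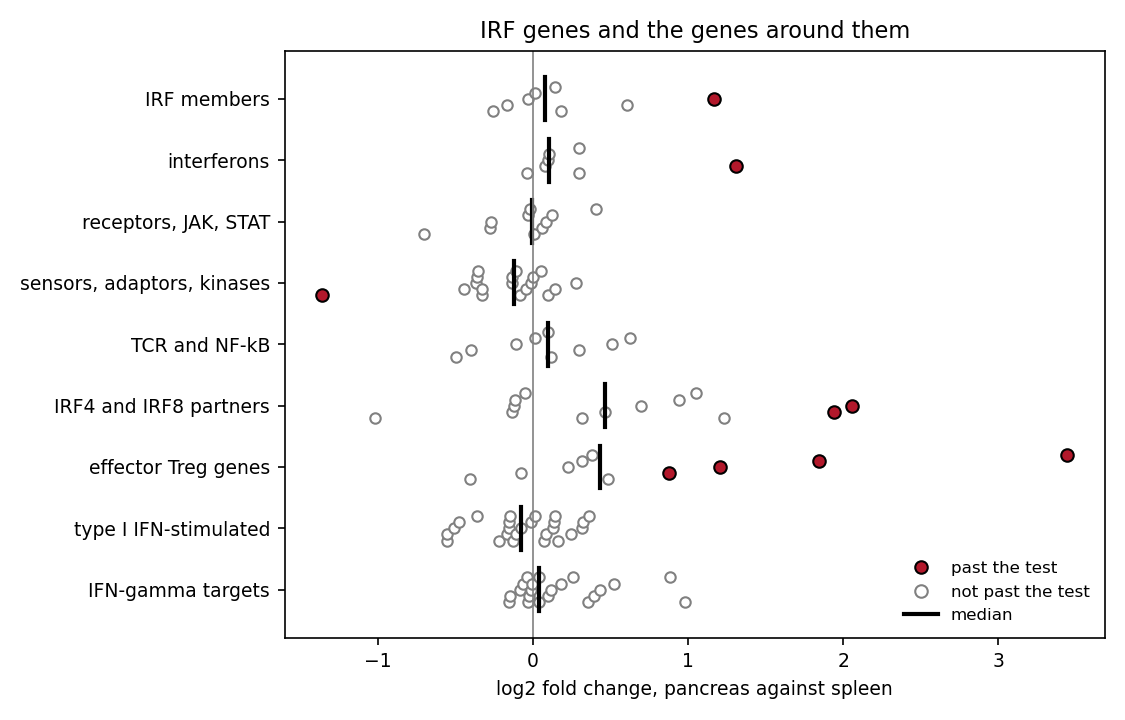
The log2 fold change, pancreas against spleen, of every measured gene of the IRF family and of 8 lists around it, with genes past the test in red, the others open, and the median of each list as a bar. Of the IRF genes only Irf8, at 1.16, is red, and both lists of interferon-stimulated genes have medians close to 0 (-0.08 and 0.04).

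Across the series, 134 of 19752 genes passed, 108 of them higher and 26 lower in pancreas. Of the 9 measured genes of the sorted population, among them Foxp3, Cd4 and Ptprc, 0 passed in limma and 1 had an unadjusted p under 0.05, Ctla4 (log2 fold change 0.60, adjusted p = 0.318). Their log2 fold changes ran from -0.32 to 0.60. The acinar cell markers had a summed intensity of 13279 to 26572 in pancreas and 797 to 2431 in spleen over 10 genes, of which 9 rose. Plasma cell markers summed to 378 to 624 in pancreas and 172 to 206 in spleen over 4 genes, with Jchain past the test and Tnfrsf17 below background on all arrays. For 7 CD8 T and NK cell markers the ranges of the sum overlapped, at 754 to 903 in pancreas and 718 to 864 in spleen. Of these, Klrd1 passed as higher in pancreas (adjusted p = 0.0397) and Ncr1 did not overlap (adjusted p = 0.104), both below background on all 6 arrays. Epithelial, endothelial and stromal markers summed to 1118 to 1127 in pancreas and 1367 to 1469 in spleen over 9 genes, of which 0 passed in limma and 1 had an unadjusted p under 0.05. That gene was Pecam1, an endothelial and leukocyte adhesion gene, at 8.80 in pancreas and 9.61 in spleen. Of the 9, 6 had a higher mean in pancreas, and the median log2 fold change was 0.04. Epcam was among the 6, at 6.68 in pancreas and 6.33 in spleen. Its arrays, like those of Ncr1, did not overlap, which held for 10.4% of all genes.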

How the data were processed

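Per the labels, RNA of the sorted Treg cells was labelled after amplification (Ambion WT Expression Kit) and measured on Affymetrix Mouse Gene 1.0 ST arrays. The authors deposited 1 linear intensity per probe set and array, and the submitters' processing notes name RMA and Affymetrix Power Tools. The versions, and how the arrays were normalised together, are not given in the sources used here, and the deposited columns do not share 1 distribution. The values were taken to log2 with no pseudocount or further normalization. Of 24922 probe sets, 21425 name exactly 1 gene in the platform annotation, 1399 several and 2098 none. Where a gene had several probe sets, the one with the highest mean over the 6 arrays was used. The background level was the 95th percentile of the mean log2 value over 1194 olfactory and vomeronasal receptor genes, an intensity of 63.9. Where the lower tissue had no array above it, the fold is a lower bound against that level.

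Groups came from the titles in the labels. All 19752 genes were fitted with limma 3.58.1 in R 4.3.3 (lmFit and eBayes, two-sided, no covariates), with p-values adjusted by Benjamini-Hochberg across these genes and called under 0.05. Promoter letters were searched in Python 3.11.15. The fit was tested on simulated data for this comparison, in 5 runs on 19752 genes with 200 altered genes each. Calls were made for 1.20% of genes altered by 0.5 (log2), for 44.4% at 1 and for 90.4% at 2, and 3.13% of all calls were false. The simulated noise was independent between genes and arrays. Deviations shared by many genes of an array, such as its width, were therefore not simulated, and the rates may differ with them. The IRF members and the gene lists were chosen with earlier results of these data known. Genes named from a list are those past the test and up to 3 others above background with the smallest p, or the 3 largest differences for markers of other cells, beside the 5 genes most like Irf8 and Irf4. Gbp3, Ifnb1, Tbk1, Tap1, Psmb8, B2m, Batf, Batf3, Spi1, Spib, C1qb, Itgam, Klrd1 and Ncr1 were named outside this rule, after their values were seen, as were the markers of other cells named for lying below background on all arrays. The rule takes all genes of the sorted population, of which Foxp3, Cd4, Ptprc and Ctla4 are named. Alternatives covered normalization, background, pseudocount, probe set choice, variance model, array weights, the replicate number as a block, markers of other cells and each array left out. The labels do not say that the replicate numbers mark shared animals or batches. Same-numbered arrays did not deviate together, which does not decide the question.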

Additional observations from a re-analysis of the deposited data

How the results depend on the processing

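Over 19 alternatives, Irf8 kept its direction, at 1.02 to 1.30 on the log2 scale, and passed in 15. Its call ended with a common array width (1.30, adjusted p = 0.0703), with a floor at the background level (1.16, adjusted p = 0.290), and in 2 of 6 leave-one-out fits (1.02 to 1.26). The floor left the Irf8 values as they were, while limma's prior degrees of freedom were 0.353 under it and 6.58 without it. Irf4 passed in 4 alternatives: with array weights (0.80, adjusted p = 0.00501), without pancreas array 3 (range of the 6 fits 0.40 to 0.91), without pancreas array 3 and spleen array 1 together (0.85, adjusted p = 0.0233) and with array width as a covariate (0.71, adjusted p = 0.0215), the last pair chosen after seeing the data. Array weights ran from 0.336 to 4.01 by limma's gene-by-gene method, used because its default method did not converge. The number of IRF genes past the test was 0 with a common width and with the floor, 2 with array weights and in both fits chosen after seeing the data, and 0 to 2 with 1 array left out.

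Signs turned for genes that did not pass. Irf1 was at -0.081 with the mean of its probe sets and ran from -0.15 to 0.23 with 1 array left out, with negative values of -0.15, -0.04, -0.04 and -0.11. Irf2 was at 0.15 with a common width, at 0.011 without both narrow arrays, and at 0.018 and 0.039 in 2 fits of a range from -0.10 to 0.039. Without spleen array 1, Irf5 was at -0.064 (range to 0.29) and Irf7 at -0.15 (range to 0.50). Irf1 minus Irf2 was at -0.0029 with a common width, -0.048 with the mean of probe sets, and -0.07 and -0.15 in a range of -0.15 to 0.29. Irf2bpl was at -0.06, -0.22 and -0.38 in 3 leave-one-out fits (range to 0.43) and at -0.0017 without both narrow arrays. Ifna2 was at -0.017 with array weights and with width as a covariate, -0.26 without pancreas array 3 (range to 0.32) and -0.16 without both narrow arrays. Ifna5 was at 0.038 after quantile normalization, 0.076 with a common width, 0.025 with array weights, and 0.21 and 0.17 without pancreas array 1 or spleen array 1 (range from -0.31). The cause of these changes was not tested.

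The count over all genes (134) became 212 after quantile normalization, 64 with median centring, 66 with a common width, 3 with the floor, 40 with a pseudocount of 32, 1684 with array weights, 347 without both narrow arrays, 544 with width as a covariate and 64 to 262 with 1 array left out. Of the partners of IRF4 and IRF8 (2), 4 passed after quantile normalization, among genes above background and with width as a covariate, 1 with median centring and with the pseudocount, 0 with the floor, 6 with array weights and without both narrow arrays, and 1 to 3 with 1 array left out. Of the effector Treg genes (4), 2 passed with median centring and with the pseudocount, 1 with the floor, and 2 to 4 with 1 array left out. Interferon genes and sensors (1 each) gave 0 with the floor, and sensors 2 with array weights. Receptors (0) gave 2 with array weights and 1 with width as a covariate, TCR and NF-kB genes (0) gave 4, 1 and 1 with array weights, without both narrow arrays and with width, type I targets (0) gave 3 with array weights, and interferon gamma targets (0) gave 1 among genes above background, 5 with array weights, 1 without both narrow arrays and 2 with width. With the replicate number as a block, 132 genes passed, Irf8 among them (1.16, adjusted p = 0.0274) and Irf4 not (0.61, adjusted p = 1.00). The deviations of same-numbered arrays correlated at -0.18, 0.05 and -0.63 over 11698 genes. Those of the narrowest array of each tissue, pancreas array 3 and spleen array 1, correlated at 0.48. For the widest, pancreas array 1 and spleen array 3, the value was 0.34. The highest value of any pair was 0.50, for pancreas array 2 and spleen array 3, the middle and the widest of their tissues. With 3 arrays a tissue that also differ in width, these values cannot decide whether same-numbered arrays share animals or batches.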
